A study of Mus musculus with 142 samples.

Results

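Steep timing transition regions are the stretches of the genome where replication timing (RT) changes fastest along the chromosome. They were sought in a table of log2 ratios of early to late S-phase DNA in 50 kb windows of the mouse genome (build mm10), in which a positive value means that a window was copied early in S phase. For each window the values were averaged over all columns of the table, using windows with a value in at least 100 columns. A window was a member where the means 5 windows to its left and 5 to its right, 500 kb apart, differed by 1.5 or more in size. Of 49264 windows in the table, 38595 had such a difference and 3516 (9.11%) were members. Neighbouring member windows that run in the same direction were joined to 693 transitions. The members were thus chosen by the averaged profile, so their number, slope and direction are descriptions, and only differences between homologs and between deletion lines were tested.

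RT is usually set over domains that replicate as units. Early domains hold many origins that fire together at the start of S phase, late domains hold origins that fire near its end, and between both lies a timing transition region, which is thought to be copied by forks that run out of the early domain and by origins that fire one after another. The transition thus marks where an early domain gives way to a late one.

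The cells were F121-9, a mouse embryonic stem cell line grown in 2i + LIF, whose 2 chromosome sets come from a strain-129 and a CAST parent, so that single-base differences assign DNA to 1 homolog. Cells were labelled with BrdU for 2 hours and sorted into early and late S phase, and BrdU-labelled DNA of both fractions was sequenced. The table held 66 such libraries of 53 clones in 26 lines that carry CRISPR deletions in the Dppa domain of chromosome 16, with a strain-129 and a CAST profile each. The study asked which pieces of its early replication control elements A, B and C keep the domain early. The lines are named by what was deleted: whole elements (A, B, C), sites bound by Oct4, Sox2 and Nanog together (OSN), or transcription start sites (TSS). Z is a further OSN site upstream of A, and other names give parts of C by their size. The lines with 1 clone were COSN123, A.BOSN1.COSN123, A.BOSN12.BTSS.COSN123, AOSN.BOSN12.COSN123, BOSN12.COSN123, BTSS and CR11.8k. Those with 2 were A.B.COSN123, A.BOSN12.COSN123, A.COSN12, AOSN.COSN12, AOSN.COSN123, BOSN1.COSN123, CL20k, COSN1, COSN1.2.8k, CR13.4k, CR14.6k, CTSS, Z.AOSN.COSN123 and Z.B.C. ATSS.BTSS.CTSS, BTSS.CTSS and COSN12 had 3 each, A.COSN123 had 4 and AOSN.B.COSN123 had 5. Per the column headers, the deletions lay on the strain-129 homolog in 63 of 66 libraries, and CAST was unmodified in 51. All clones come from 1 hybrid line, and lines built on COSN123 share its single clone, so p-values measure the spread between clones, and a deletion and the history of its clones cannot be told apart. Away from the deleted sites, a comparison of strain-129 with CAST compares 2 strains' chromosomes in the same cells.

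The profiles differed in contrast. Over the 132 profiles the median steepness of the members, which is the difference over 500 kb at a transition's steepest window in the direction of the transition, ranged from 1.44 to 2.277 with a median of 1.89. The share of members that reached 1.5 in 1 profile alone ranged from 43.1% to 96.7%, with a median of 87.4%. Both libraries of clone 2E.1 of A.B.COSN123 stood apart at the low end, with medians of 1.44 to 1.49 on both homologs. Without that clone the lowest median was 1.57, and the rule gave 3569 member windows and 710 transitions. Of the 53 clones, 10 had no value for at least 1 chromosome of a homolog (CAST chromosome 11 in 6 of them, and clone 2E.1 of A.B.COSN123 also strain-129 chromosome 13), so shifts there rest on fewer clones. No profile ran against the mean profile at more than 1 member.

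The genes nearest to the ends of the steepest transitions give a view of the DNA on either side, and their promoters are shown because the sides of the transitions differ in CG content over all members, as given further on. The sequences run 5′ to 3′ over 250 bases before and 50 bases after the start (RefSeq, build GRCm38.p6), with CG dinucleotides in capitals. The first is a start of Jmjd1c, which encodes a histone demethylase of the JmjC family, on the + strand at chr10:67126838-67127137. Jmjd1c had the nearest gene start to both ends of the steepest transition (296.1 kb from the early end). The printed stretch belongs to a start further away, 552.1 kb from the steepest window. The window of that start had a mean log2 ratio of 1.28, and the stretch holds 47 CG dinucleotides. The second is Ctnna3, which encodes alpha-T-catenin of cell junctions, on the + strand at chr10:63429848-63430147, at the early end of the second steepest transition, with a level of 1.30 and 39 CG dinucleotides. The third is another start of Ctnna3 on the late side of the same transition, past its last member window, which ended at 63.8 Mb. This start is on the + strand at chr10:63820805-63821104, with a level of -0.82 and 2 CG dinucleotides. It was chosen after the values were seen. With a single start counted per gene, the start nearest to the late end of that transition was that of Gm10118, at 127.4 kb. Ctnna3 itself spans that end.
Jmjd1c promoter: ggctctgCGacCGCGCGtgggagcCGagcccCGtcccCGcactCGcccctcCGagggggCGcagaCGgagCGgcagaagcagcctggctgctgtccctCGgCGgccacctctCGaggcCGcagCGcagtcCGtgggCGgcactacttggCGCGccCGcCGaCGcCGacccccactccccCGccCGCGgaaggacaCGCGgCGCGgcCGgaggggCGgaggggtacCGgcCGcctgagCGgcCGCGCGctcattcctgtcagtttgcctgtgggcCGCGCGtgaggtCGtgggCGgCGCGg
Ctnna3 promoter, early end: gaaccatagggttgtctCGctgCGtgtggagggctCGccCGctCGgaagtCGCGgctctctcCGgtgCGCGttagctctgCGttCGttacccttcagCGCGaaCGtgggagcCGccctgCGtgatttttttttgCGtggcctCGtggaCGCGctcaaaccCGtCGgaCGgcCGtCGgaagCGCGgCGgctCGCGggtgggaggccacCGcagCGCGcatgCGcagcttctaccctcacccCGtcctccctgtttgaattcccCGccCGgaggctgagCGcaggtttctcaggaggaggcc
Ctnna3 promoter, late side: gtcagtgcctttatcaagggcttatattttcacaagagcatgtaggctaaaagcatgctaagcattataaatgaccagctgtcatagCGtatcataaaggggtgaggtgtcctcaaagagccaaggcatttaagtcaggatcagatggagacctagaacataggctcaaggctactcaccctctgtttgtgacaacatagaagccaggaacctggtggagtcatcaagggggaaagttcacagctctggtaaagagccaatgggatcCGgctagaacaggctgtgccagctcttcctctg

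Over all windows the size of the difference over 500 kb had a median of 0.45 and an upper quartile of 0.94. The threshold cuts through a continuous range: 742 windows lay between 1.5 and 1.6, and 884 between 1.4 and 1.5. Just inside it were windows in Pcca and Ggact (chr14:122800001-122850000, 1.5001), Sugct (chr13:17350001-17400000, 1.5002) and Rab3c (chr13:110100001-110150000, 1.5003). Just outside were windows in Otud7a (chr7:63750001-63800000, 1.4999), Adamts20 (chr15:94400001-94450000, 1.5 when rounded) and Slc35f4 (chr14:49350001-49400000, 1.5 when rounded).

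The members ran in both directions in near equal number. Going along the chromosome, 352 transitions went from late to early and 341 from early to late, with median differences of 1.83 and 1.85 at their steepest windows. The transitions held 1 to 10 member windows with a median of 5, and 46 held a single one. Their difference ranged from 1.5 to 2.60, with quartiles of 1.68 and 2.10 and a median of 1.85. Every autosome had members, from 20 transitions on chromosome 19 to 49 on chromosome 7. The share of windows that were members was lowest on chromosome 4 (5.74%) and highest on chromosome 3 (11.98%).

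Followed outward on the mean profile until it stopped rising or falling, a steep transition joined plateaus of opposite timing. The early end had a median log2 ratio of 1.17 and the late end of -1.15. In 690 of the 691 transitions with both ends measured the early end lay above 0 and the late end below 0. The early ends reached at most 1.41 and the late ends at lowest -1.58, so a difference of 1.5 nearly always spans 0. That count thus follows mostly from the rule. The amplitude from end to end had a median of 2.11 and the length a median of 700 kb, with quartiles of 600 and 850 kb. That is a median rate of 0.298 log2 units per 100 kb. For scale, the 589 transitions whose difference was 1.0 to 1.5 had a median amplitude of 1.32 over 550 kb (0.231 per 100 kb), and the 848 of 0.5 to 1.0 one of 0.77 over 400 kb (0.176 per 100 kb). Steep transitions were thus longer as well as taller on the mean profile. The authors smoothed the profiles by loess, which sets a limit on the slope that a single step could show.

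**Figure D1:**
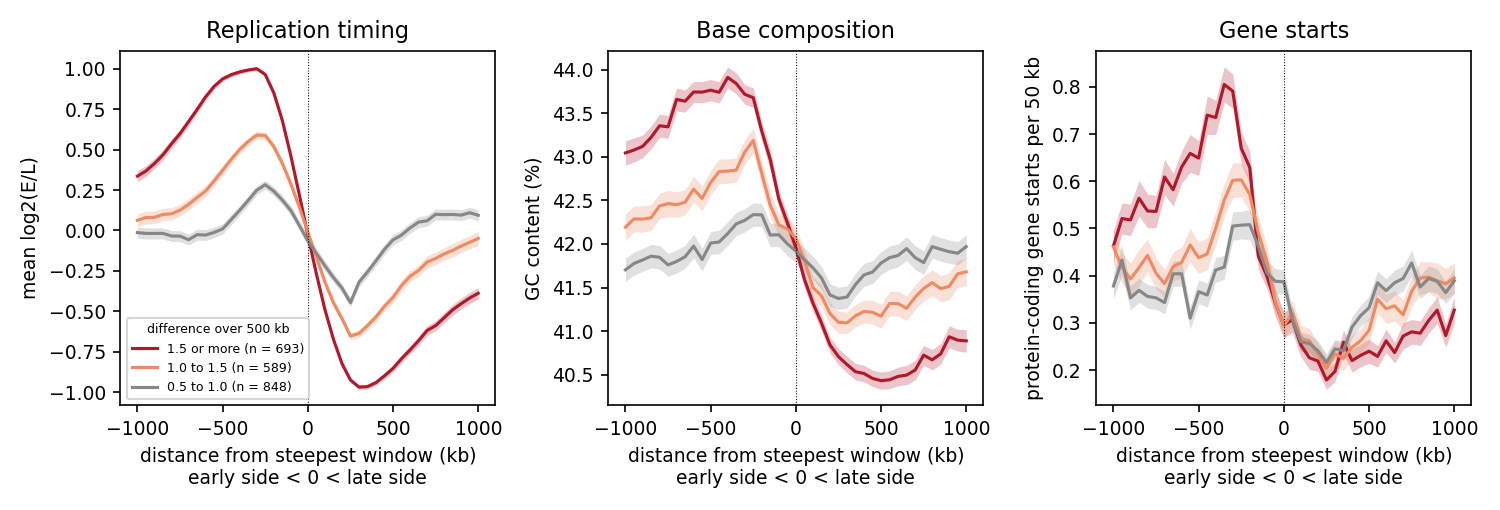
Mean log2 ratio of early to late DNA (left), GC content in percent (middle) and protein-coding gene starts per 50 kb (right) against the distance in kb from the steepest window, with the early side drawn on the left. Lines are means over the 693 steep transitions, the 589 with a difference of 1.0 to 1.5 and the 848 with one of 0.5 to 1.0, bands are ± SE over transitions, and the steep class spans the widest range in all 3 panels.

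Between neighbouring members lay 264 early domains with a median length of 1.65 Mb and 268 late domains with a median of 1.95 Mb. In 142 further cases 2 neighbouring members ran in the same direction, with a median of 4 Mb between them.

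The 10 steepest members, chosen by their mean difference, ran from 2.48 to 2.60. The steepest lay at chr10:66550001-66600000 in a stretch with no protein-coding gene, 409.2 kb from Reep3, which encodes a protein that shapes the endoplasmic reticulum. It rose from a late end of -1.45 to an early end of 1.34. Next was the one inside Ctnna3 (chr10:63700001-63750000), which fell from 1.30 to -1.32 within the gene. The others were near Gramd3 (chr18:56250001-56300000), Gm5849 (chr3:90850001-90900000), Cd109 (a surface protein that binds TGF-beta, chr9:78900001-78950000) and Got2 (mitochondrial aspartate aminotransferase, chr8:96200001-96250000). The remaining ones were near Tmpo (a lamina-associated protein of the nucleus, chr10:91450001-91500000) and Tph2 (the tryptophan hydroxylase of serotonin neurons, chr10:114950001-115000000), and inside Car10 (chr11:93600001-93650000) and Unc13c (a synaptic vesicle priming factor, chr9:73450001-73500000). In single clones the steepness at the Reep3 member ranged from 1.79 to 3.12 on strain-129 with a median of 2.55, and from 1.86 to 3.25 on CAST with a median of 2.64. At the Ctnna3 member these values were 1.89 to 3.14 with a median of 2.58 on strain-129, and 1.99 to 3.15 with a median of 2.60 on CAST. The ranges of both homologs overlapped at both.

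Both homologs carried most of the steep windows. With the rule applied to the mean of 1 homolog alone (at least 50 columns), 3711 windows passed on strain-129 and 3600 on CAST. Of these, 2760 passed on both, which is 74.4% of the strain-129 windows and 76.7% of the CAST windows, and 0 of them ran in opposite directions.

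The next question was whether a transition lay at the same place on both homologs. Its position in a profile was the point where the profile crossed the midpoint of the mean curve, and the shift is the distance between the strain-129 and CAST positions in the same library, positive where early replication reached further towards the late side on strain-129. A shift between homologs flattens the mean of both, so the rule itself favours members whose homologs lie close, and the share of shifted members can be read only with that in mind. Among 677 members with a fitted shift, 204 (30.1%) were called at an adjusted p under 0.05 and a mean shift of 50 kb or more in size (limma, paired within the library), beside 41.6% of the 2075 transitions of 0.5 or more tested. Of the 204, early replication reached further on strain-129 in 96 and on CAST in 108. The shift had a median size of 30.5 kb over the members and of 40.3 kb over all transitions tested, and in 279 members it was under 25 kb. In the shallower classes 251 of 578 transitions (43.4%) with a difference of 1.0 to 1.5 and 409 of 820 (49.9%) with one of 0.5 to 1.0 were called. Whether these shares differ beyond what the rule sets was not tested.

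**Figure D2:**
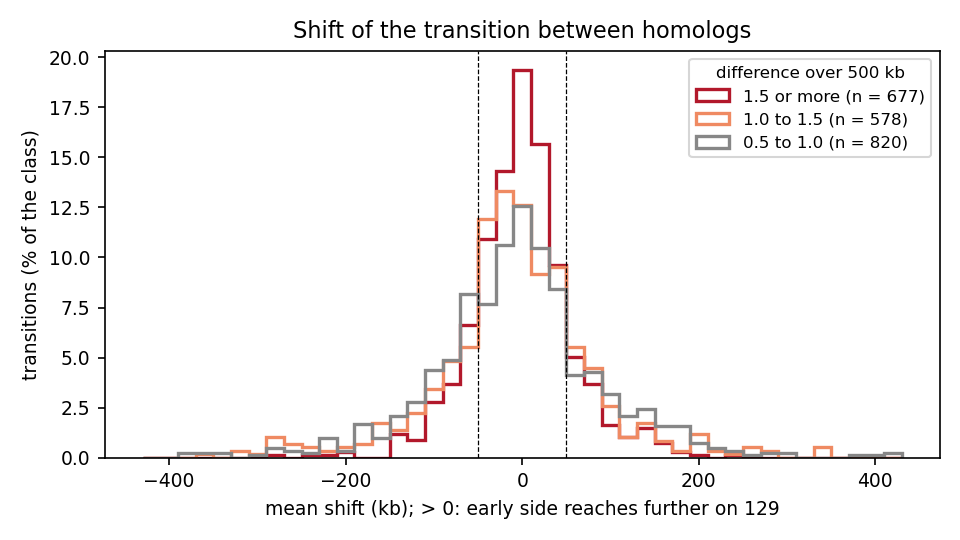
Share of transitions in percent of their class against the mean shift in kb between homologs, for the 677 steep members and the classes of 1.0 to 1.5 (578) and 0.5 to 1.0 (820). Dashed lines mark 50 kb in size, and the steep class has the highest peak around 0.

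The place of a steep transition varied little between clones. The SD of the position over clones had a median of 38.2 kb on strain-129 (684 members) and 39.2 kb on CAST (686 members), below the size of 1 window. It was 52.9 and 54.4 kb for differences of 1.0 to 1.5, and 79.1 and 82.2 kb for 0.5 to 1.0. The slope moves with this order too, and its part in it was not tested.

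The steepest members showed that small shifts can be measured where clones vary little. At the Tmpo member the crossing lay at 91.406 to 91.587 Mb on strain-129 with a median of 91.476 Mb, and at 91.379 to 91.503 Mb on CAST with a median of 91.433 Mb. The ranges overlapped, yet within each clone strain-129 reached further in 53 of 53, with a mean shift of 44.2 ± 2.61 kb (SE; limma, adjusted p = 3.84e-22). At the Got2 member it was the other way in 53 of 53 clones, with a shift of -45.8 ± 3.14 kb (limma, adjusted p = 1.60e-19). Both stayed under the 50 kb set for a call. The Reep3 member shifted by 30.6 ± 2.67 kb (50 of 53 clones positive; limma, adjusted p = 1.92e-15) and the Ctnna3 member by -16.4 ± 2.97 kb (42 of 53 negative; limma, adjusted p = 1.99e-06). At the Gm5849 member the shift was -7.35 ± 4.71 kb, with 28 of 53 clones positive, and did not pass (limma, adjusted p = 0.148).

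The largest called shifts exceeded the spread between clones. Among the 10 named, early replication reached further on CAST at the members of Chodl, Fam241a, Shcbp1, Agbl1 and Maml3, and further on strain-129 at those of Dsg1b, Dynlrb2, Hmcn1, Nabp1 and Rnf150. The largest was near Chodl (chondrolectin, a membrane lectin) at chr16:78800001-78850000. There the strain-129 crossing lay between 78.543 and 78.771 Mb over clones with a median of 78.665 Mb, and the CAST crossing between 78.883 and 79.038 Mb with a median of 78.944 Mb. The groups did not overlap, and the shift was -275.3 ± 7.69 kb, negative in 51 of 51 clones (limma, adjusted p = 5.93e-36).

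The member at Dsg1b, which encodes a desmoglein of cell junctions (chr18:20350001-20400000), went the opposite way. Its strain-129 crossing lay at 20.113 to 20.349 Mb with a median of 20.280 Mb and its CAST crossing at 20.408 to 20.566 Mb with a median of 20.512 Mb. Since the early side is on the right, strain-129 reached 236.9 ± 3.93 kb further into the late side, in 53 of 53 clones (limma, adjusted p = 2.31e-48). At Shcbp1, which encodes a partner of the adaptor Shc (chr8:4750001-4800000), the strain-129 crossing of 4.637 to 4.713 Mb and the CAST crossing of 4.844 to 4.963 Mb were also apart, with a shift of -216.0 ± 3.30 kb. Near Fam241a (chr3:128050001-128100000) the crossing was at 127.862 to 128.077 Mb on strain-129 and at 128.111 to 128.322 Mb on CAST (shift -235.0 ± 6.28 kb). At both, CAST reached further in 53 of 53 clones.

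Agbl1 encodes an enzyme that trims glutamate chains from tubulin. Near it (chr7:76150001-76200000) the strain-129 crossing lay at 75.957 to 76.133 Mb and the CAST crossing at 76.146 to 76.413 Mb, a shift of -203.1 ± 7.82 kb. Maml3, a coactivator of Notch, held a member at chr3:51750001-51800000 with crossings of 51.628 to 51.775 Mb on strain-129 and 51.808 to 51.972 Mb on CAST (-201.6 ± 4.87 kb). The ranges were apart at both, and all measured clones (53 and 51) shifted the same way.

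The other 4 named members reached further on strain-129 and their clone ranges overlapped. At Dynlrb2, a dynein light chain gene (chr8:116500001-116550000), the shift was 190.8 ± 7.63 kb and positive in 52 of 53 clones. Near Hmcn1, which encodes the matrix protein hemicentin (chr1:151000001-151050000), it was 173.1 ± 6.27 kb, and near Nabp1, which encodes a single-strand DNA binding protein of the damage response (chr1:51400001-51450000), 172.7 ± 8.28 kb. At Rnf150, a RING finger gene (chr8:82850001-82900000), it was 165.6 ± 7.08 kb. Those 3 were positive in 53 of 53 clones. Of all 693 members, 9 had clone positions that did not overlap between the homologs, and all 9 were called; besides the 6 above they were the members of Olfr164, Kif20b and Mecom. Over all 2130 transitions of 0.5 or more the number was 21. A shift of at least 100 kb was called at 54 of the 677 members tested, beside 371 of all 2075 transitions tested.

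**Figure D3:**
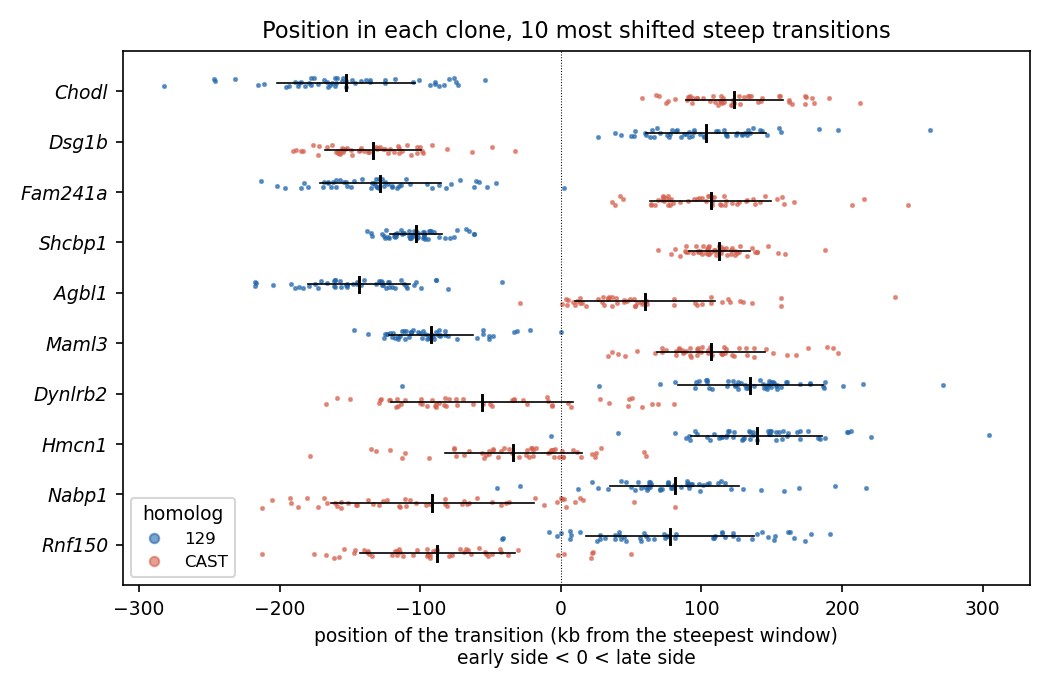
Position of the transition in each clone (points), in kb from the steepest window with the early side on the left, for the 10 named members with the largest called shifts. Blue is strain-129 and red is CAST, vertical marks are means and horizontal lines are ± SD, and in the first 6 members named from Chodl to Maml3 the colours stay apart.

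The level of single windows was also compared between homologs. Among 3481 member windows tested, 233 (6.69%) differed by 0.5 or more at an adjusted p under 0.05 (limma), beside 5.44% of the 45145 windows tested, and 120 of the 233 were earlier on strain-129 and 113 on CAST. The share lay close to the background. The median size of the difference was 0.15 in member windows and 0.09 over all windows. On a steeper slope the same shift gives a larger difference in level, so the 2 measures are not separate results.

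The slope, read on both homologs at the steepest window of the mean profile, differed between them at some members. A homolog whose transition lies elsewhere can read as less steep at that window, so steepness and shift are not separate results. Of 693 members, 180 (26.0%) differed in steepness by 0.25 or more at an adjusted p under 0.05 (limma), beside 31.6% of the 2130 transitions of 0.5 or more, and 95 were steeper on strain-129 and 85 on CAST. The largest difference was near 2610301B20Rik (chr4:10550001-10600000), where steepness was 1.69 to 2.48 on strain-129 with a median of 2.06 and 0.49 to 1.58 on CAST with a median of 1.19. The ranges did not overlap, and strain-129 was steeper by 0.89 ± 0.04 (SE) in 52 of 52 clones. Its position did not pass the test (mean shift 9.71 ± 14.8 kb; limma, adjusted p = 0.556), but the clones spread widely there, from -317.7 to 113.4 kb, with a median of 59.4 kb and 38 of 53 positive.

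Gatm encodes the enzyme that makes the precursor of creatine, and its member (chr2:122550001-122600000) was steeper on strain-129 by 0.84 ± 0.04 in 53 of 53 clones, with medians of 2.16 and 1.36. Steeper on CAST were the members at Mtbp and Sntb1 (chr15:55600001-55650000), Dclk3 (chr9:111400001-111450000) and near Rgs17 (chr10:6050001-6100000). Mtbp encodes a partner of MDM2 that also takes part in origin firing, Sntb1 a syntrophin, Dclk3 a kinase and Rgs17 a regulator of G proteins. At Mtbp and Sntb1 the medians were 1.29 on strain-129 and 2.117 on CAST (difference -0.84 ± 0.04, 0 of 50 clones steeper on strain-129). At Dclk3 they were 1.18 and 2.01 (-0.82 ± 0.04, 0 of 50). At Rgs17 they were 1.09 and 1.92 (-0.80 ± 0.03, 0 of 52). The members at Gatm (-129.6 ± 14.7 kb), Mtbp and Sntb1 (71.8 ± 6.20 kb) and Dclk3 (140.4 ± 7.79 kb) were also called as shifted. The one near Rgs17 was not (-13.2 ± 8.21 kb). The part of the shift in these differences of steepness was not tested.

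**Figure D4:**
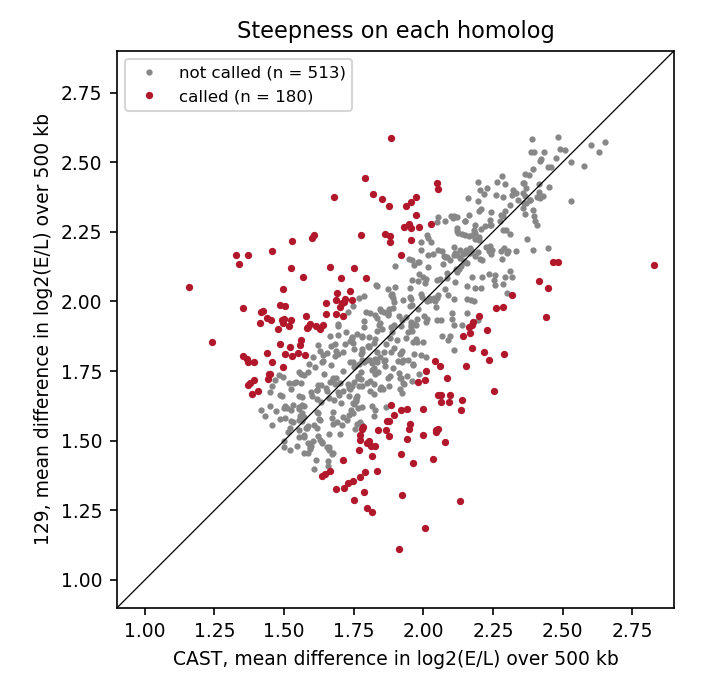
Steepness, as the mean difference in log2 ratio over 500 kb, on strain-129 (vertical axis) against CAST (horizontal axis), 1 point per steep member. Red points are the 180 members called for a difference between homologs, which lie on both sides of the line of equality.

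Whether the shift differed between deletion lines was tested over the 19 lines with 2 or more clones (46 clones) by a moderated F test. Of 675 members tested, 149 (22.1%) passed at an adjusted p under 0.05, beside 19.9% of all 2038 transitions tested, a share close to that of the members. The members lie on every autosome while the deletions lie in 1 domain of chromosome 16. With each clone left out in turn, the count ranged from 115 to 171.

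The smallest p was at Tbc1d4, which encodes a Rab GTPase activator of glucose uptake (chr14:101400001-101450000; F = 9.44, limma, adjusted p = 5.44e-05). Over all clones the shift ranged from -115.9 to 168.0 kb with a median of 6.8 kb. The 5 clones of AOSN.B.COSN123 ranged from 55.2 to 168.0 kb and the 4 of A.COSN123 from 48.0 to 111.9 kb, while the 2 of CL20k lay at -111.5 and -73.5 kb and the 2 of CR14.6k at -82.0 and -79.6 kb. The strain-129 crossing spanned 101.351 to 101.488 Mb over clones and the CAST crossing 101.273 to 101.600 Mb, so the wider spread was on CAST.

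Near Nefm, a neurofilament gene (chr14:68250001-68300000; F = 9.39, limma, adjusted p = 5.44e-05), the 3 clones of BTSS.CTSS lay at -153.7 to -98.2 kb and the single clone of BOSN12.COSN123 at -115.7 kb, apart from the other lines' means of -17.9 to 84.0 kb.

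At Has1 and the formyl peptide receptor genes Fpr1, Fpr2 and Fpr3 (chr17:17850001-17900000; F = 8.45, limma, adjusted p = 6.69e-05) strain-129 reached further in 53 of 53 clones, by 4.8 to 201.7 kb, so the lines differed in size and not in direction. COSN12 had the largest mean, 196.4 kb (188.8 to 201.7 kb), and A.B.COSN123, with 23.1 kb, the smallest of the lines tested. At Serpina3f and Serpina3g, which encode serine protease inhibitors (chr12:104200001-104250000; F = 7.74, limma, adjusted p = 0.000106), line means ran from -94.4 kb in COSN1.2.8k to 173.6 kb in ATSS.BTSS.CTSS. These 4 members lie on other chromosomes than the deletions.

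**Figure D5:**
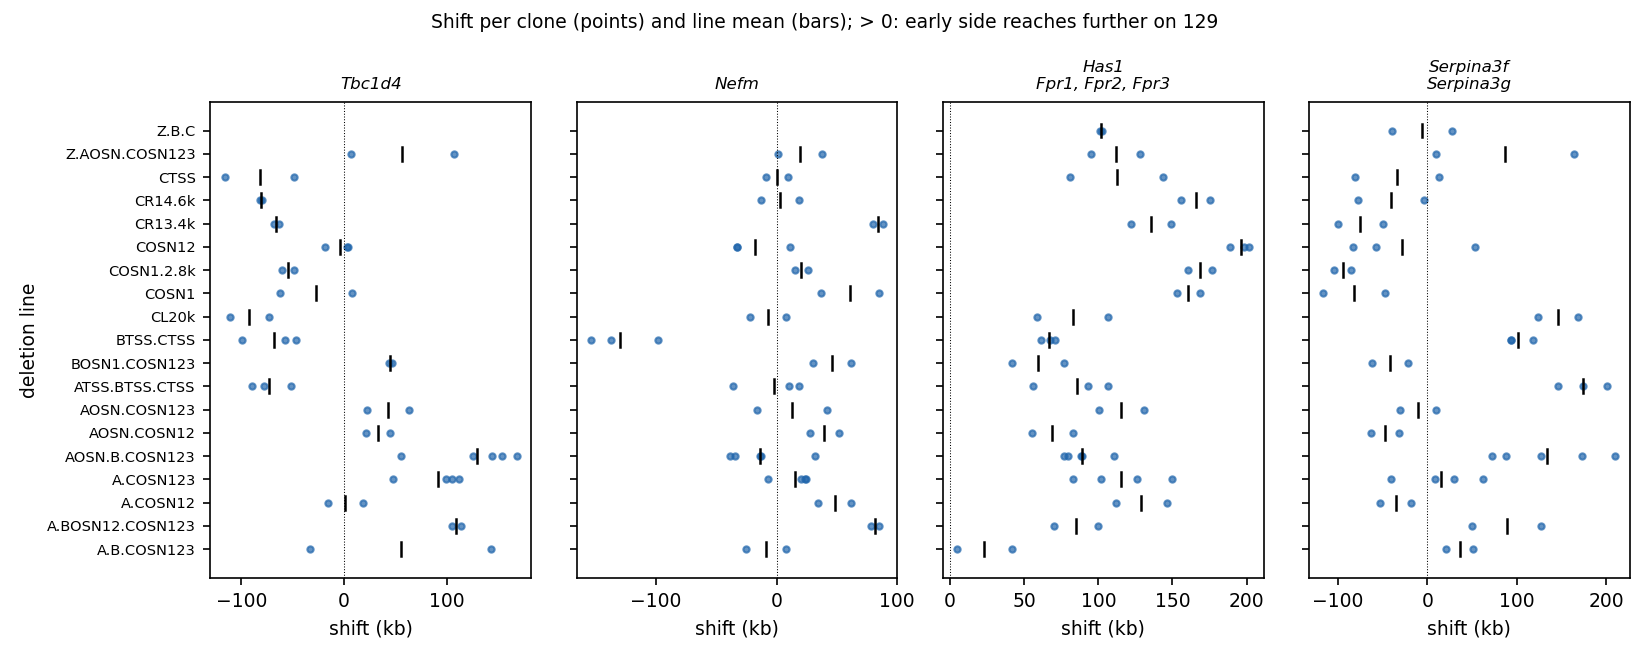
Shift in kb of each clone (points) and the mean of each line (bars) for the 4 named members of small p between lines, over the 19 lines with 2 or more clones. At Has1 and its neighbours every clone lies above 0, and at Nefm the 3 clones of BTSS.CTSS lie apart on the negative side.

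The Dppa domain, where the deletions lie, holds Dppa2 and Dppa4, genes expressed in pluripotent cells. Its left border was a member: the steepest window at chr16:47950001-48000000, 283.7 kb from Dppa4, had a difference of 1.82 and rose from -1.41 to 0.77. In the 3 libraries whose strain-129 homolog was unmodified the crossing lay at 48.000, 48.017 and 48.022 Mb. Where strain-129 carried a deletion it lay between 47.951 and 48.245 Mb with a median of 48.074 Mb (59 libraries with a crossing). On CAST it lay at 47.814 to 48.012 Mb with a median of 47.930 Mb where unmodified (50 libraries) and at 47.917, 47.937 and 47.949 Mb in the 3 libraries whose CAST state is given as deleted. CAST carried a named deletion in 12 more: it lay at 47.853 to 47.982 Mb with a median of 47.912 Mb with B (8 libraries), at 47.907, 48.008 and 48.102 Mb with ATSS (3), and at 47.956 Mb with BTSS (1). By the medians of each homolog's unmodified libraries, 50 on CAST and 3 on strain-129, CAST lay further out. These medians were not paired within libraries. With ATSS the CAST median came near that of the unmodified strain-129 libraries. Libraries of the deleted strain-129 homolog spread on both sides of the 3 unmodified ones.

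Over clones the left border shifted by -143.3 ± 8.57 kb, negative in 50 of 50 clones (limma, adjusted p = 2.61e-21), and strain-129 was less steep by 0.295 ± 0.0601 there (limma, adjusted p = 1.73e-05). Line means of the shift ranged from -76.4 kb in COSN12 to -288.0 kb in A.BOSN12.COSN123. Of the lines with COSN123 in the name, 11 of 12 had a measured shift there (22 of 24 clones), so the range leaves out a line. The lines tested differed (F = 3.21, limma, adjusted p = 0.0254), but not with clone C11 of A.BOSN12.COSN123 left out (adjusted p = 0.0902). In the averages over clones the deletions and the strain of the homolog cannot be told apart. The right border of the domain, at Cip2a (chr16:49000001-49050000), was no member of the set, with a difference of -1.42 in the mean profile. Its steepness on the strain-129 homolog was 1.73 to 1.76 in the 3 unmodified libraries and -0.09 to 2.19 with a median of 0.82 in 61 with a deletion. The mean that the rule read, at both borders, held profiles of deleted homologs. The part of the deletions in its slope was not tested. The next transition, near Ift57 (chr16:49600001-49650000), had a difference of 1.08.

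What lies on the 2 sides of the steep transitions was described with features the rule did not use, taken 150 to 500 kb from the steepest window. The early side was richer in G and C in 640 of 693 members (92.4%), with medians of 43.4% and 40.2%, beside 41.4% over all windows. CpG dinucleotides were denser on the early side in 679 (98.0%), with medians of 10.6 and 6.45 per kb. Gene starts were more frequent on the early side in 605 (87.3%), with means of 0.681 and 0.222 per window, beside 0.434 over all windows. Repeats covered a median of 30.3% of the early side and 32.4% of the late side. For the shallower classes of 1.0 to 1.5 and 0.5 to 1.0, GC content was higher on the early side in 79.3% and 63.8%. CpG dinucleotides were denser there in 89.3% and 73.5%, and gene starts more frequent in 72.8% and 55.4%. The difference between the classes was not tested.

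Promoters followed the same order. Within 500 kb of the steepest windows lay 3607 promoters on the early side with a median of 16 CG dinucleotides in 300 bases, and 1310 on the late side with a median of 3. Of the former, 64.3% held 10 or more CG, and of the latter 23.1%, beside 57.9% of all 20062 promoters. On the late side of transitions of 1.0 to 1.5 the share was 38.5%, and of 0.5 to 1.0 it was 45.6%, while on the early side it was 63.3% and 64.2%. The order was not seen in the single promoters nearest to the steepest windows of 9 of the 10 steepest members, where 6 of 9 on each side held 10 or more CG, with medians of 20 on the early side and 19 on the late side. On the late side these included Elk3 with 31 CG, Car10 with 27 and Cox7a2 with 20. On the early side they included another start of Ctnna3 with 7. Not all late-side starts lay in late DNA: the level was 1.02 at Elk3 and 0.05 at Cox7a2, and Car10 had no value. It was -1.27 at Cdh8 (21 CG) and -0.96 at Trhde (19 CG). The late-side ones lay 96.1 to 3191.5 kb from the steepest window and the early-side ones 179.3 to 552.1 kb. The late-side Ctnna3 sequence printed above was picked after the values were seen. Its low count does not stand for the nearest late-side promoters of the steepest members.

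At the steepest windows themselves 364 of 693 members (52.5%) overlapped a protein-coding gene, beside 62.2% of all windows with a difference. These were 455 genes with a median length of 75.6 kb, where all protein-coding genes had 17.6 kb; long genes are more likely to overlap any window. Of the 455, 221 (48.6%) were transcribed towards the late side and 234 towards the early side, so neither direction prevailed.

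Of 26 genes of pluripotency, 0 had their start in a member window and all 26 had a level above 0, with a median of 1.22. The lowest was Dppa4 with 0.61, followed by Dppa2 with 0.70, both in the deleted domain. Over all 20807 protein-coding genes 1105 (5.31%) started in a member window and the median level was 1.12, with 15216 of 18765 measured starts above 0. Of 30 lineage regulators, 3 started in a member window: Sox17, which directs endoderm (level 0.24), Gata6, of primitive endoderm (-0.24), and Lmx1a, of dopamine neurons (0.22). Their list had a median of 0.86 with 23 of 29 above 0, a share near that of all genes.

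Of 30 long neuronal and fragile-site genes, 3 started in a member window: Dlg2, a synaptic scaffold (0.24), Macrod2 (-0.13) and Fhit, at a common fragile site (-0.27). The body of 9 genes of the list overlapped member windows, among them Ctnna3, Cntnap2, Magi2, Cdh13 and Erc2, beside 1406 of all 20807 protein-coding genes. The list was chosen for long genes, which overlap more windows. The list was late as a whole, with a median of -0.92 and 6 of 24 measured starts above 0. Dlg2 alone spanned 12 member windows.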

How the data were processed

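Early and late S-phase DNA of 71 libraries (142 samples in the labels) was sequenced. The table held 138 columns of 66 libraries, and 5 libraries were not analysed here. The deposited values are log2 ratios of early to late reads in 50 kb windows. Per the study's methods and the submitters' processing notes, the authors trimmed reads (Trim Galore, cutadapt), aligned them with bowtie2 to an N-masked mm10 genome, split them by homolog with SNPsplit, counted them with bedtools, and scaled, quantile-normalized and loess-smoothed the ratios. Versions are not given in the sources used here. Quantile normalization gives profiles a common range of values, and smoothing ties neighbouring windows together. The depth is unknown, so no counting error could be given.

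Columns were mapped by their headers. Repeat runs of a library were averaged and counted as 1 library, and libraries of a clone were averaged, which gave 53 clones. Both homologs come from the same library, so strain-129 minus CAST was formed within the library as a paired difference. It was fitted with limma 3.58.1 (R 4.3.3) over all 45145 windows, or all transitions of 0.5 or more, measured in at least 20 clones, with Benjamini-Hochberg adjustment. Calls needed an adjusted p under 0.05 and a size of 0.5 (level), 50 kb (shift) or 0.25 (steepness). Positions were sought within 400 kb of the steepest window. Shifts between lines were tested by a moderated F test over lines with 2 or more clones. Up to 5 windows without a difference were allowed inside a transition. The scripts were tested on simulated data.

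Named are the 10 steepest members, the 10 largest called shifts (at least 40 clones), the 5 largest called steepness differences, those of the 5 smallest p between lines except 1 that is not reported here, all transitions at 47 to 50 Mb of chromosome 16, and the windows nearest to the threshold. A gene name gives the overlapping or nearest protein-coding gene and only marks the place. The members and gene lists were chosen with earlier results of these data known.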

Additional observations from a re-analysis of the deposited data

Results flagged for a closer look

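In lines of 4 or 5 clones, a single clone lay far from the others of its line at 6 of the 68 groups of named transitions and lines tested, where chance alone flags about 1 in 20. Most of these were in A.COSN123. Clone D8 had a shift of 44.7 kb near Gm5849, where the other clones lay at -11.8 to -4.4 kb, and of 48.9 kb near Rgs17, where they lay at -37.3 to -24.8 kb. Clone B7 lay at -231.5 kb near Agbl1 (others -187.3 to -178.7 kb). Clone H10 lay at -6.9 kb near Nefm (others 20.0 to 24.8 kb). In AOSN.B.COSN123, clone 3C.4 lay at -47.4 kb at Ctnna3 (others -16.1 to -7.9 kb) and clone 5A.2 at -67.4 kb near 2610301B20Rik (others 57.5 to 69.8 kb).

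The shift between homologs differed between deletion lines (moderated F test, limma, Benjamini-Hochberg) at Tbc1d4 (adjusted p = 5.44e-05), Nefm (adjusted p = 5.44e-05), Has1, Fpr1, Fpr2 and Fpr3 (adjusted p = 6.69e-05) and Serpina3f and Serpina3g (adjusted p = 0.000106). At the borders of the Dppa domain it differed on the left, at Dppa4 (adjusted p = 0.0254), and on the right, at Cip2a (adjusted p = 0.00511). Both calls were lost with lines of 3 or more clones (adjusted p = 0.122 on the left and 0.246 on the right), and the left one also without clone C11 of A.BOSN12.COSN123 (adjusted p = 0.0902). The deletions of a line and the history of its clones cannot be told apart.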

How the results depend on the processing

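The number of members followed the rule. A threshold of 1.0 gave 8788 windows and 1297 transitions, and 2.0 gave 774 and 233. With 3 windows to each side 712 windows passed, and with 7 windows 5578. Other additions were chosen after seeing the data: without joining over windows lacking a difference there were 751 transitions, without clone 2E.1 of A.B.COSN123 there were 710, and clones were left out of the test between lines. For the homologs, the counts below are members, with all features in brackets. Window levels were called at 990 (8716) for a size of 0.25 and 2830 (27094) for none. Shifts were called at 398 (1355) for 25 kb and 54 (371) for 100 kb. Taking the crossing of 0 as the position gave 233 (522) shifts, against 204 (864) with the midpoint. Calls thus rose among members and fell over all transitions, so the part that members make of all calls depends on how the position is set. The number tested at that level is not given here. In the test between lines, lines with 3 or more clones gave 80 (211). Without the pairing within a library (no replicate block) the counts were 231 windows, 205 shifts and 179 steepness differences among members, so the block changed no count by over 1.5 times.

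Leaving out each line in turn gave 229 to 234 member windows (2435 to 2504), 202 to 207 shifts (853 to 880) and 177 to 185 steepness differences (664 to 688). Leaving out each clone gave 115 to 171 members between lines (327 to 457). At the left Dppa border the lines no longer differed with lines of 3 or more clones (adjusted p = 0.122) or without clone C11 of A.BOSN12.COSN123 (0.0902), nor at Cip2a with lines of 3 or more clones (0.246). The Cip2a shift went from -83.9 to -44.2 kb, under the size set for a call, without clones lacking a chromosome. At Ift57 the lines differed without clone G3 of BTSS.CTSS (0.00473, against 0.258). The cause of these changes was not tested. No result changed its direction under the alternatives run. The depth of the libraries is unknown, so a shift below the spread between clones cannot be read as absent.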

Other observations

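At the Tbc1d4 member, grouping lines by their names, a grouping chosen after the values were seen and so without a test, gave a shift above 0 in 22 of 24 clones of lines with COSN123 in the name, with a median of 95.7 kb. In the other lines it was below 0 in 21 of 27 clones, with a median of -57.4 kb. The exceptions were clones at -33 and -17.1 kb in the first set and up to 44.6 kb in the second. Lines built on COSN123 share its single clone, so the 24 clones are not independent. The deletion and the history of that clone cannot be told apart here. Near Nefm the same grouping gave medians of 24.0 and 11.5 kb.

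Where both borders of an early domain were called as shifted, which held for 23 of 264 domains between neighbouring members, the same homolog had the wider early domain by both borders in 16 and the homologs differed between the borders in 7. For late domains both borders were called in 27 of 268, with 14 and 13.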
